A study of Mus musculus with 12 samples.

Results

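The genes described here are those of the synaptic vesicle and of the SNARE machinery, read in RNA from purified brain myelin at 4 ages. They were picked by symbol alone: the synaptotagmins (Syt), VAMPs, syntaxins (Stx), syntaxin binding proteins (Stxbp), synapsins (Syn1, Syn2, Syn3), Sv2a to Sv2c, complexins (Cplx), SNAPs (Snap23, Snap25, Snap29, Snap47 and Snap91), synaptophysin (Syp) and synaptogyrins (Syngr). The rule took 66 of the 21937 genes listed. Of these, 32 were grouped as neuronal (vesicle or presynaptic proteins of neurons), 22 as general (membrane fusion proteins used by most cells) and 12 as other, from background knowledge of each gene. Earlier results of these data were known when the lists were drawn up, so the grouping was not blind to the values. Myelin, the membrane that oligodendrocytes wrap around axons, was enriched as a light-weight membrane fraction from the brains of wild-type male c57Bl6/N mice by sucrose density centrifugation, and 3 libraries were sequenced at each of P18, P75, 6 months and 24 months, 12 in all. The mice carried no transgene and had no treatment, and the groups differed in age. Such a fraction can also carry RNA of axons and other cells that copurify with the sheath, and how much it did was not tested here. By qRT-PCR the paper found neuronal transcripts, among them the member Syt1, diminished in myelin relative to brain lysate. From low levels of marker genes its authors inferred little contamination from neighbouring cells. Whole brain was not analysed here. Nothing in the labels says how the libraries of an age relate beyond their replicate number, so p-values measure the spread between these libraries.

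The libraries held between 20299052 and 27214385 reads on genes, and the members together took 1.04% to 1.499% of them. P18 replicate 3 stood apart from the other P18 libraries: Mbp, a major myelin transcript, took 9.47% of its reads against 15.1% and 20.8%. The defining markers of myelinating oligodendrocytes were present at every age. From P18 to P75 9 of 12 were called lower and 0 higher (limma, adjusted p under 0.1), against 22.9% and 25.9% of all genes. Neuron markers were present too. Of 16 markers listed, none of them a member, 15 were in the table and none of the 15 was at 0. Their summed normalized read count was 132175 to 165402 in the P18 libraries, 117232 to 141245 in those of P75, 158495 to 166768 at 6 months and 137663 to 151524 at 24 months.

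SNARE proteins drive membrane fusion by zipping a VAMP on the vesicle together with a syntaxin and a SNAP-25 family protein on the target membrane. At the nerve terminal this core is made of Vamp2, Stx1a and Snap25, is held ready by complexins and triggered by calcium bound to synaptotagmins, while Syp, Sv2 proteins, synaptogyrins and synapsins belong to the vesicle itself. Every cell uses related SNAREs between its own compartments, and oligodendrocytes use Vamp3, Vamp7, Stx3 and Stx4 to deliver proteolipid protein to the growing sheath.

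The promoter of Syn1, a classical neuron-specific promoter, is shown because it alone among the matched neuronal members held the left part of the RE1 element and a CRE, both known from neuronal genes. RefSeq gave promoters for 49 of the 66 members (21 neuronal, 19 general, 9 other), and the 250 bases before each start were searched on both strands. The RE1 element is bound by a repressor that keeps neuronal genes silent outside neurons, and its left part, TTCAGCACC, occurred in 0.348% of 27025 genes. The right part, GGACAGC, found in 6.135% of genes, was in the neuronal Syt6 and the general Stx5a and not in Syn1, and the parts joined over a 2-base gap were in 0 of 21 neuronal and 0 of 19 general promoters, against 0.0111% of genes. Only exact matches were searched. In Syn1 the 2 bases after the left part are followed by GGTCAG, where the joined form has GGACAG. The CRE, TGACGTCA, bound by CREB, occurred in 1.77%. The left part and the CRE of Syn1 lie on the minus strand of the X chromosome in build GRCm38.p6, at chrX:20921122-20921168 and chrX:20921050-20921097, with the motif in capitals.
Syn1, left part of RE1 starting 232 bases before the start: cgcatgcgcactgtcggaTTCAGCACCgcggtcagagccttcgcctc
Syn1, CRE starting 159 bases before the start: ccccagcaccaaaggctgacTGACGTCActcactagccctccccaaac
Among the 19 general members 0 held the left part or the CRE. GC boxes (GGGCGGG) were found in 12 of 21 neuronal and 9 of 19 general promoters, against 25.75% of all genes. TATAAA was found in 1 of 21 and 2 of 19, against 14.3%. These matches describe the letters only.

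Snap25 had the highest level of the members at every age, in normalized read counts per kilobase of merged exons. At 6 months its level per kilobase was 13007 ± 176 (SD, n = 3). Among the members next in level per kilobase at that age were Syp with 4681 ± 302, Cplx1 with 4638 ± 233, the general member Snap47 with 4174 ± 219 and Syn1 with 3194 ± 170. Syp and Cplx1 differed by less than their SDs. Taking the length of the longest transcript instead raised Syp to 8580 and Vamp2 from 2978 to 5144 per kilobase, so the order below Snap25 depends on the length used. At the other end, Vamp7, one of the SNAREs named for myelin delivery, was listed at 0 in all 12 libraries, and its symbol had no single match in the annotation. Together with Cplx4, Stx11, Stx19, Syngr4, Syt8 and Syt14 it had a mean normalized read count below 10 and was not tested, which left 59 members.

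**Figure D1:**
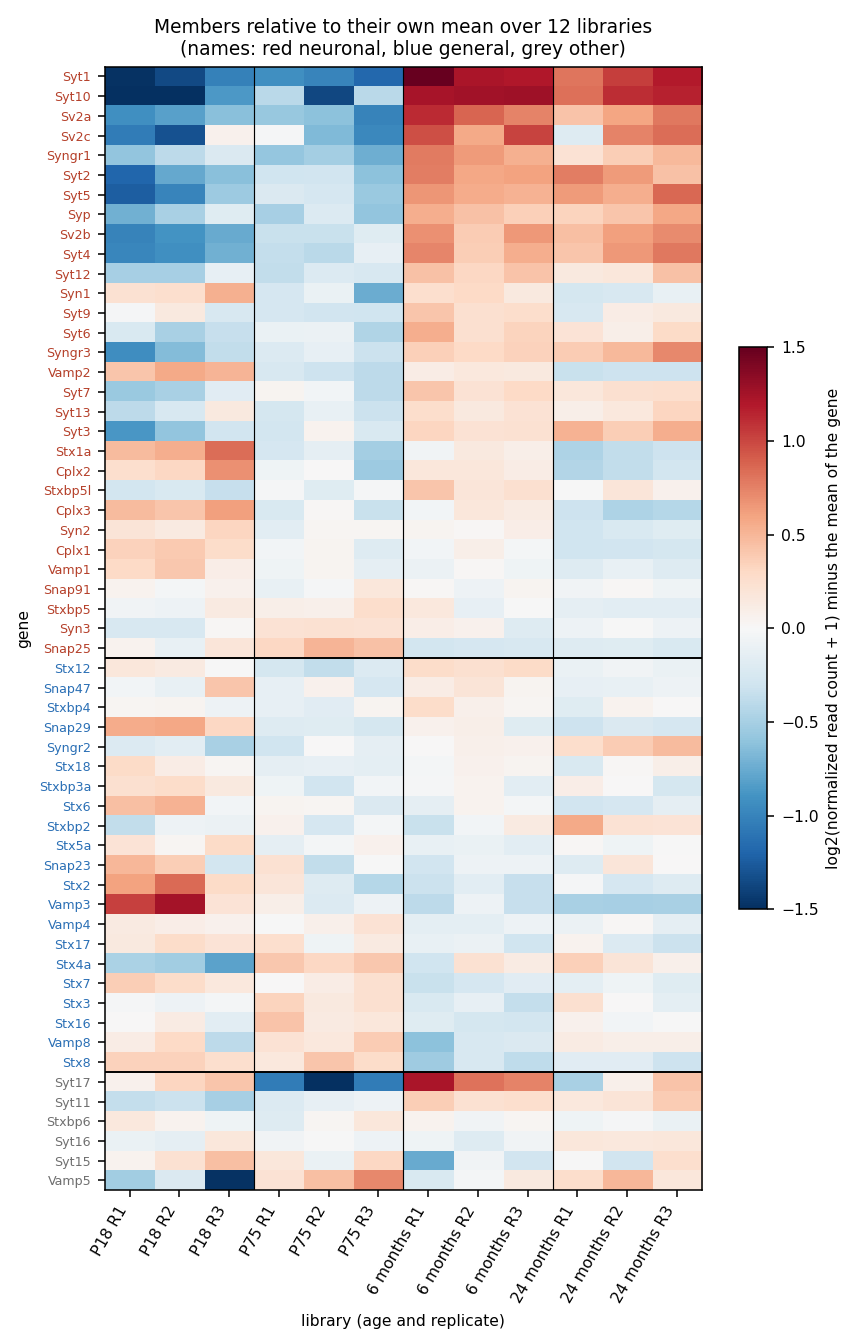
Log2(normalized read count + 1) of 57 of the 59 members tested (rows) in the 12 libraries (columns), each minus the mean of its gene, with colours cut at 1.5 on either side. Most of the upper neuronal rows (Syt1, Syt10, Sv2a, Sv2b, Syp) are blue at P18 and P75 and red at 6 and 24 months, while Vamp2, Stx1a and the complexins are reddest at P18 and Snap25 at P75.

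Between P75 and 6 months most neuronal members rose, while more general members fell than rose. Ages were compared with limma on log2(normalized read count + 1), and a gene was called at a Benjamini-Hochberg adjusted p under 0.1 over all 14634 genes tested. From P75 to 6 months 25 of 32 neuronal members were called higher and 2 lower, with a median log2 change of 0.51, whereas 2 of 21 general members were called higher and 8 lower, with a median of −0.09. Over all genes 31.2% were called higher and 29.4% lower, with a median of 0.01. Over 2-fold rises were called in 7 of 32 neuronal and 0 of 21 general members, against 5.3% of all genes. With each library left out in turn, 23 to 25 neuronal members were higher, 1 to 4 general members were higher and 6 to 9 lower, and the general median was 0.03 without P75 replicate 1. The difference of the neuronal and the general medians was 0.61, and it lay between 0.49 and 0.73 over 17 alternative settings that left out a library or changed the scaling, the filter, the fit or the tool. Of the 15 neuron markers, 10 were called higher and 2 lower in the same comparison, as were 5 and 2 of 10 forebrain neuron markers. Markers of cerebellum and brainstem neurons were split, with 2 of 9 higher and 3 lower. Of the markers of other cells, 6 of 10 for microglia were higher and 1 lower, 3 of 5 for oligodendrocyte precursors and 3 of 12 for myelinating oligodendrocytes were higher and 0 lower, 4 of 11 for astrocytes were higher and 1 lower, and 2 of 5 for endothelium were higher and 2 lower. The part of these in the result was not tested. Which cells the reads of the neuronal members came from was not tested. In these bulk libraries more RNA per cell of a type and more material of that type in the fraction cannot be told apart. The labels do not say whether the ages were processed together.

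The neuronal members were split from P18 to P75 and from P18 to 24 months, and those called from 6 to 24 months were all lower. From P18 to P75 11 rose and 10 fell (median 0.08), against 3 and 8 of the general members (median −0.15), with 25.9% of all genes called higher and 22.9% lower. Without P18 replicate 1 the neuronal counts were 6 and 11 and the general ones 3 and 5 (all genes 23.1% and 20.3%). Without P18 replicate 3 they were 13 and 10 and 2 and 9 (26.7% and 23.3%). Without P75 replicate 1 they were 8 and 9 and 1 and 7 (23.4% and 20.8%). With every library scaled to the same total they were 12 and 7 and 4 and 4, with 32.4% of all genes called higher and 12.5% lower. From 6 to 24 months 0 neuronal members rose and 11 fell (median −0.19), against 5 and 2 of the general members (median 0.11), with 16.6% and 12.7% of all genes. These counts moved with single libraries. The 11 neuronal falls were 6 without 24-month replicate 2, and 7 without 24-month replicate 1 or 6-month replicate 2. The share of all genes called lower in these fits was 7.4% to 8.1%. The 5 general rises were 0 without 6-month replicate 1, 1 without 24-month replicate 1, 2 without 24-month replicate 2, 3 without 24-month replicate 3 or 6-month replicate 2 or 3, and 2 with every library scaled to the same total. Over the fits just named, 9.5% to 15.0% of all genes were called higher. The 2 general falls were between 1 and 5 over the settings tried. The count of 0 neuronal rises was the same with edgeR, with DESeq2 and in limma at an unadjusted p under 0.05, and at most 1 neuronal member rose under any setting tried. Between the ends of the series, P18 and 24 months, 17 neuronal members rose and 9 fell (median 0.36). Of the general members 3 rose and 11 fell (median −0.19), and of all genes 34.7% rose and 34.3% fell. Rises over 2-fold were called in 10 of 32 neuronal members, against 14.5% of all genes. With each library left out, 17 or 18 neuronal members rose and 9 fell. The 11 general falls were 7 with every library scaled to the same total, a fit in which 27.1% of all genes were called lower. Of the neuron markers 3 rose and 6 fell from P18 to P75, 0 rose and 5 fell from 6 to 24 months, and 5 rose and 7 fell from P18 to 24 months. Of 10 microglia markers 7 rose from P18 to P75, 5 from 6 to 24 months and 9 from P18 to 24 months, and 0 fell in any of them. The comparisons share libraries, those of P75 and of 6 months in particular, so a low level at P75 enters as a fall before it and as a rise after it.

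**Figure D2:**
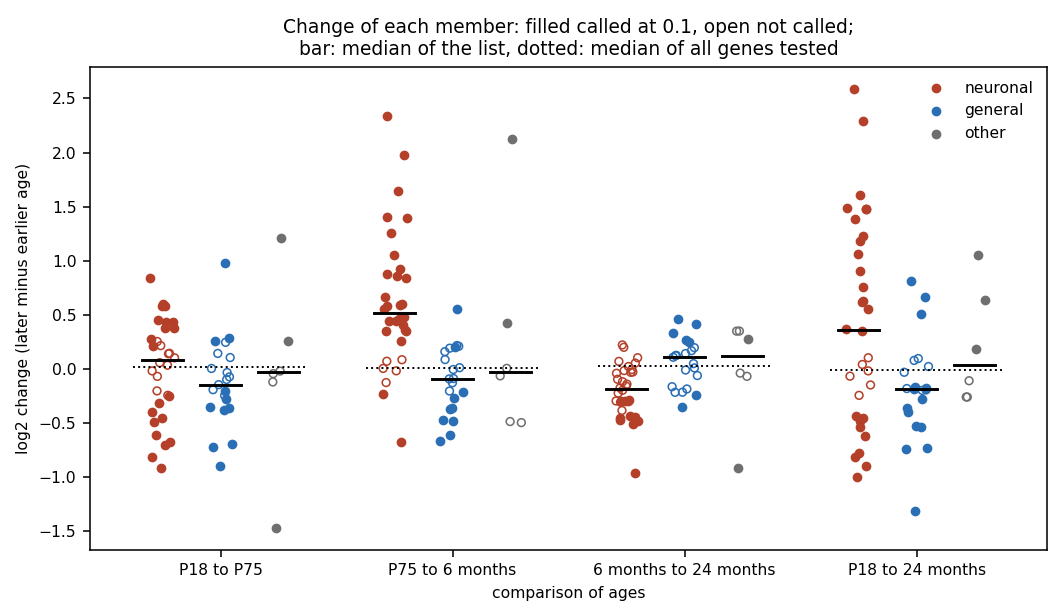
Log2 change (later minus earlier age) of each tested member in 4 comparisons, filled where called at 0.1 and open where not, with a bar at the median of each list and a dotted line at the median of all genes tested. The neuronal points of P75 to 6 months reach 2.34 and have their median at 0.51, while the general points of that comparison lie between −0.66 and 0.55.

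From P75 to 6 months the calcium sensor Syt1 gave the largest log2 rise of the 59 tested members, followed by Syt17, Syt10 and Sv2a. Syt1, the sensor of fast synchronous release at forebrain synapses, had normalized read counts of 2808, 3079 and 3875 at P18, 4142, 3940 and 3470 at P75, 22037, 18319 and 18059 at 6 months, and 13645, 16051 and 17934 at 24 months. All 6 libraries of the older ages lay far above all 6 of the younger ages, the P18 and P75 libraries overlapped, and the 24-month libraries lay below those of 6 months. The log2 change was 0.25 ± 0.13 (SE) from P18 to P75, which was not called (adjusted p = 0.137, limma), 2.34 ± 0.13 from P75 to 6 months (adjusted p = 8.58e-09) and −0.30 ± 0.13 from 6 to 24 months (adjusted p = 0.118). Of the 15 tested synaptotagmins, 13 rose and 0 fell from P75 to 6 months, and 12 rose and 0 fell from P18 to 24 months, against 31.2% higher and 29.4% lower of all genes in the former and 34.7% and 34.3% in the latter. The counts of 0 were the same in limma at an unadjusted p under 0.05, with edgeR and with DESeq2.

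Syt2, the fast sensor of many hindbrain and inhibitory synapses, had a level of 47.8 ± 3.5 (SD) normalized reads per kilobase at 6 months, against 2335 ± 267 for Syt1. Its normalized read counts were 92, 122 and 136 at P18, 169, 171 and 136 at P75, 357, 313 and 317 at 6 months, and 356, 327 and 285 at 24 months. It rose by 1.05 ± 0.15 (log2, SE) from P75 to 6 months (adjusted p = 2.29e-05), and the 6-month and 24-month libraries overlapped. The P18 to P75 change of 0.46 was called, but without P18 replicate 1 it was 0.29 with an adjusted p of 0.116. Syt10, a sensor known from the release of insulin-like growth factor in olfactory bulb neurons, rested on few reads, with values of 3.56, 2.26 and 7.03 at P18, 10.02, 4.64 and 9.95 at P75, 33.3, 33.7 and 34.1 at 6 months, and 24.8, 30.3 and 31.5 at 24 months. Its log2 change of 1.98 ± 0.35 from P75 to 6 months passed (adjusted p = 0.000216). Syt5, a synaptotagmin of secretory vesicles, had 954, 1129 and 1538 normalized reads at P18, 1929, 1890.5 and 1522 at P75, 3553, 3305 and 3216 at 6 months, and 3496, 3284 and 4069 at 24 months. The P18 and P75 libraries overlapped, as did those of the older ages, which lay above the younger ones. Syt5 rose by 0.58 and 0.92 on the log2 scale in the steps up to 6 months, and Syt4 by 0.58 and 0.84. Syt7, a slower high-affinity sensor, rose by 0.45 from P75 to 6 months (adjusted p = 0.00441).

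Membrane proteins of the vesicle also rose between P75 and 6 months. Sv2a, a vesicle glycoprotein found at nearly all synapses, had normalized read counts of 2390, 2551 and 2925 at P18, 3043, 2938 and 2243 at P75, 9759, 8283 and 7534 at 6 months, and 6073, 6778 and 7780 at 24 months. The 6 older libraries again stood above the 6 younger ones, with overlap between P18 and P75 and between 6 and 24 months. From P75 to 6 months Sv2a rose by 1.64 ± 0.13 (adjusted p = 1.65e-07, limma). Sv2b, a related glycoprotein of mostly glutamatergic terminals, gave 2094, 2252 and 2485 at P18, 3319, 3316 and 3681 at P75, 6756, 5444 and 6548 at 6 months, and 5729, 6425 and 6831 at 24 months. It rose in both steps without overlap, by 0.60 ± 0.10 (adjusted p = 0.000253) and 0.86 ± 0.10 (adjusted p = 5.46e-06), and changed by 0.02 ± 0.10 from 6 to 24 months. Sv2c rose too from P75 to 6 months, from a level near 13 to one of 34 normalized reads.

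Syp, an abundant vesicle membrane protein, had 10816, 12699 and 15773 normalized reads at P18, 12639, 15470 and 11873 at P75, 26064, 24184 and 22933 at 6 months, and 22423, 23846 and 26656 at 24 months. The younger ages overlapped with each other and so did the older ones, with a gap between them. Its rise from P75 to 6 months was 0.88 ± 0.14 (log2, SE, adjusted p = 7.85e-05). The neuronal synaptogyrins Syngr1 and Syngr3 rose in that step by 1.26 and 0.55, while their general relative Syngr2 changed by 0.19 ± 0.12 (adjusted p = 0.178). Syngr2 had 229, 237 and 188 normalized reads at P18, 214, 266 and 241 at P75, 266, 278 and 277 at 6 months, and 318, 346 and 369 at 24 months. The 24-month libraries were above all others, with a rise of 0.66 ± 0.12 from P18 (adjusted p = 0.000113). The rise of 0.33 from 6 to 24 months was called, but not without 6-month replicate 1 or 2 or 24-month replicate 2 or 3 (adjusted p between 0.1145 and 0.158).

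Of the neuronal core SNAREs, Snap25 fell from P75 to 6 months, while Vamp2 and Stx1a rose after a fall from P18. Snap25, the SNARE of the presynaptic plasma membrane, had 109834, 97316 and 119892 normalized reads at P18, 130496, 150174 and 143621 at P75, 87058, 88495 and 89430 at 6 months, and 92028, 92731 and 90084 at 24 months. P75 was the highest age without overlap, and the 6-month libraries were below all others. It fell from P75 to 6 months by 0.68 on the log2 scale, with an SE of 0.17 (adjusted p = 0.00299, limma), the step in which most neuronal members rose. The change of 0.38 ± 0.17 from P18 to P75 passed with an adjusted p of 0.0827 but not without P18 replicate 1 (0.39, adjusted p = 0.160), P18 replicate 2 (0.30, 0.218), P75 replicate 2 (0.33, 0.195) or P75 replicate 3 (0.37, 0.155). From P18 to 24 months the change was −0.25 ± 0.17 (adjusted p = 0.213).

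Vamp2, the vesicle SNARE, was highest at P18 with 13726, 15204 and 14623 normalized reads, against 8679, 8272 and 7851 at P75, 11108, 11521 and 11397 at 6 months, and 8155, 8279 and 8313 at 24 months. Its levels alternated between ages, and the P75 and 24-month libraries overlapped. It fell by 0.81 from P18 to P75 (SE 0.09, adjusted p = 3.78e-06), rose by 0.46 to 6 months (adjusted p = 0.000326) and fell by 0.46 to 24 months (adjusted p = 0.00284). Vamp1, its relative in hindbrain and spinal cord, had 6609, 7113 and 5745 normalized reads at P18, 5162, 5518 and 4916 at P75, 5057, 5429.6 and 5133 at 6 months, and 4702, 4980.1 and 4695 at 24 months. P18 lay above the other ages, and P75 overlapped with both older ages. Vamp1 fell by 0.32 from P18 to P75 (adjusted p = 0.0104) and changed by 0.00 ± 0.09 from P75 to 6 months.

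Stx1a, a presynaptic plasma membrane syntaxin, gave 2705, 2836 and 3491 normalized reads at P18, 1641, 1770 and 1366 at P75, 1873, 2161 and 2078 at 6 months, and 1408, 1510 and 1568 at 24 months. P18 was the highest age and the P75 and 24-month libraries overlapped, as for Vamp2. The log2 changes were −0.92 ± 0.11, 0.36 ± 0.11 and −0.44 ± 0.11 in the consecutive steps (adjusted p = 1.23e-05, 0.0114 and 0.0120).

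**Figure D3:**
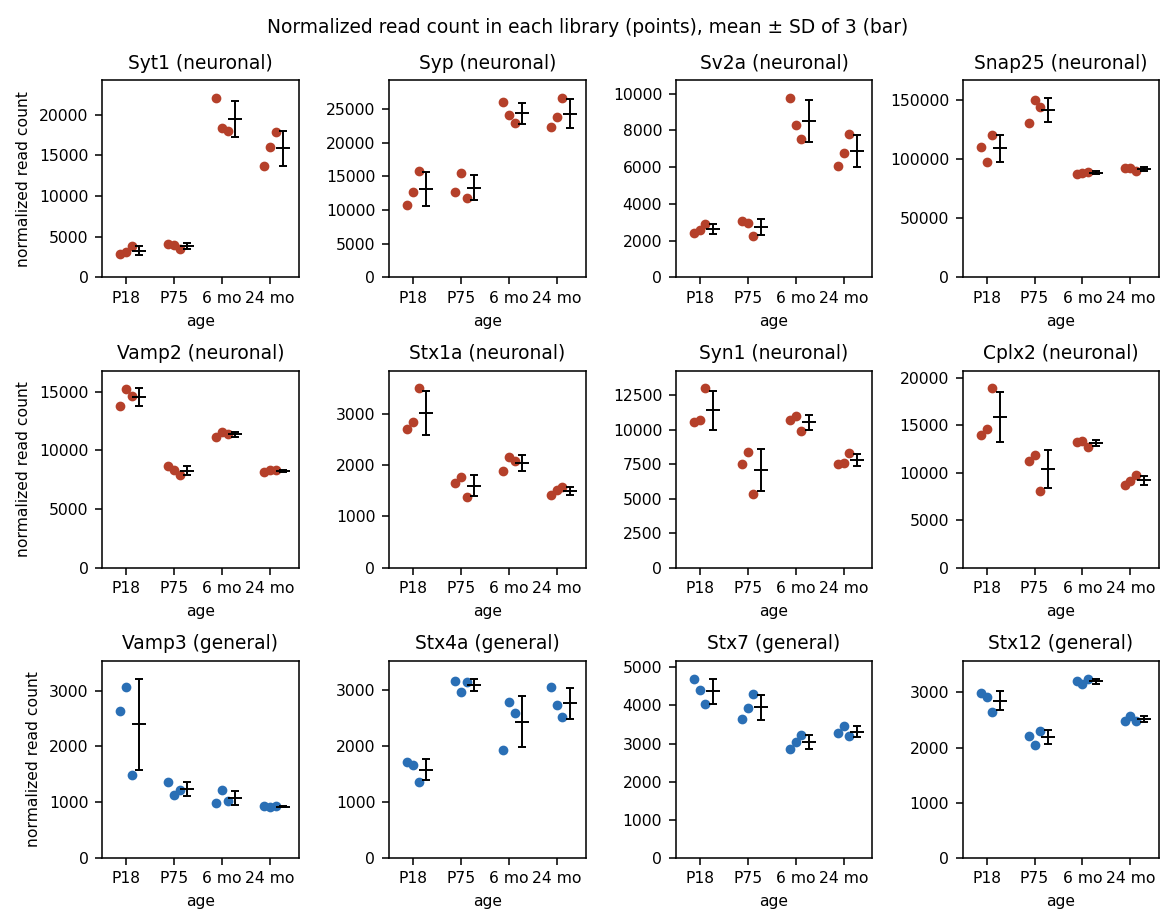
Normalized read count (vertical axes, linear from 0) of 8 neuronal and 4 general members at each age, with 1 point per library and a bar for the mean ± SD of 3. Syt1, Syp and Sv2a step up between P75 and 6 months, Snap25 peaks at P75 near 141430, and Vamp2, Stx1a, Syn1 and Cplx2 have their highest means at P18.

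Complexins, which clamp and then assist the assembled SNARE core, fell together in 2 steps. All 3 tested members were called lower from P18 to P75 and from 6 to 24 months, in which 22.9% and 12.7% of all genes were lower. Between these, from P75 to 6 months, 2 of the 3 were called higher and 0 lower, against 31.2% and 29.4% of all genes. Cplx2 had 13980, 14637 and 18864 normalized reads at P18, 11215, 11827 and 8081 at P75, 13195, 13299 and 12713 at 6 months, and 8688, 9119 and 9711 at 24 months. P18 and 6 months lay above the other ages. The falls were 0.62 ± 0.14 (adjusted p = 0.00209) and 0.51 ± 0.14 (adjusted p = 0.0184), while the change of 0.35 from P75 to 6 months was called but was 0.18 with an adjusted p of 0.247 without P75 replicate 3, the lowest of its age. Cplx1 had 12842, 13226 and 12257 normalized reads at P18, 9833, 10388 and 8839 at P75, 9836, 10742 and 9879.9 at 6 months, and 8171, 8255 and 8401 at 24 months. P18 was highest and 24 months lowest without overlap, and P75 and 6 months overlapped. Cplx1 fell by 0.40 ± 0.09 from P18 to P75 (adjusted p = 0.00212) and changed by 0.07 ± 0.09 from P75 to 6 months. Its fall by 0.29 from 6 to 24 months was not called without 6-month replicate 2 (adjusted p = 0.117) or 24-month replicate 2 (0.101). Cplx3, mainly a complexin of the retina, had 469, 453 and 518 normalized reads at P18, 289.6, 344 and 269 at P75, 328, 379.9 and 368 at 6 months, and 273, 245 and 252 at 24 months. P18 was the highest age and P75 overlapped with both older ages. Its rise of 0.26 ± 0.11 from P75 to 6 months was called (adjusted p = 0.0568, limma), but not without P75 replicate 1 or 3 or 6-month replicate 2 or 3. Cplx3 fell by 0.90 ± 0.11 from P18 to 24 months (adjusted p = 2.47e-06).

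Synapsins, which tether vesicles in the reserve pool, differed among themselves. Syn1 had 10541, 10683 and 13010 normalized reads at P18, 7527, 8383 and 5368 at P75, 10683, 11010 and 9920 at 6 months, and 7500, 7597 and 8326 at 24 months. P18 and 6 months overlapped, P75 and 24 months overlapped, and the former pair lay above the latter. It fell by 0.70 ± 0.14 from P18 to P75 (adjusted p = 0.000718), rose by 0.59 ± 0.14 to 6 months (adjusted p = 0.00173) and changed by −0.43 ± 0.14 to 24 months. That last call was lost without replicate 1 or 2 of either age, with an adjusted p between 0.1002 and 0.111. Syn2 had 10216, 9774 and 11134 normalized reads at P18, 7994, 9124 and 9108 at P75, 9191, 9024 and 9534 at 6 months, and 7239, 7632 and 7876 at 24 months, with P18 above and 24 months below all other libraries. It fell by 0.45 ± 0.09 from P18 to 24 months (adjusted p = 0.000385), with a change of 0.08 ± 0.09 from P75 to 6 months. Its change of −0.25 from P18 to P75 was called, but was −0.18 with an adjusted p of 0.159 without P75 replicate 1. Syn3, the least abundant at each age in normalized reads per kilobase, rose by 0.37 ± 0.09 from P18 to P75 (adjusted p = 0.00493). The span of each synapsin gene overlaps that of a metalloproteinase inhibitor gene (Timp1, Timp4 and Timp3), as do those of Vamp1 with Tapbpl, Snap29 with Pi4ka, Snap47 with Jmjd4 and Syngr2 with Afmid. Whether the exons overlap was not checked, and whether the counting used strand is not given in the sources used here. Snap91 (AP180), a clathrin assembly protein of nerve terminals rather than a SNARE, had 9295, 8787 and 9371 normalized reads at P18, 8293, 8833 and 10028 at P75, 9055, 8504 and 9172 at 6 months, and 8602, 9044 and 8536 at 24 months. The ages overlapped, and it was called in none of the comparisons. Its log2 changes lay between −0.07 and −0.02, with an interval of −0.26 to 0.12 for P18 to 24 months.

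The general members tied to the plasma membrane and to myelin delivery moved apart from each other. Vamp3 (cellubrevin), the recycling endosome SNARE of proteolipid protein transport, gave 2638, 3068 and 1491 normalized reads at P18, 1369, 1119 and 1224 at P75, 982, 1223 and 1017 at 6 months, and 925, 911 and 923 at 24 months. Its highest values were those of P18 replicates 1 and 2, and P18 replicate 3, which also had the least Mbp of its age, was close to P75. It fell by 0.89 from P18 to P75 (SE 0.18, adjusted p = 0.00106, limma) and by 1.32 from P18 to 24 months (adjusted p = 1.06e-05). Both calls held when each library was left out in turn. Stx4a, a plasma membrane syntaxin, had 1710, 1665 and 1366 normalized reads at P18, 3168, 2967 and 3155 at P75, 1932, 2788 and 2602 at 6 months, and 3061, 2729 and 2517 at 24 months. It was lowest at P18 without overlap with the other ages, and rose by 0.98 ± 0.12 to P75 (adjusted p = 2.07e-05). Its change of −0.36 ± 0.12 from P75 to 6 months was called, but was −0.20 with an adjusted p of 0.152 without 6-month replicate 1. The span of Stx4a overlaps that of a gene on the opposite strand.

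Stx3, the other syntaxin of that route, had 545, 522 and 539 normalized reads at P18, 697, 613 and 650 at P75, 471, 509 and 432 at 6 months, and 651, 555 and 500 at 24 months. P75 lay above P18 and above 6 months. The fall from P75 to 6 months was 0.47 ± 0.10 (adjusted p = 0.00109), and the rise of 0.28 before it was lost without P75 replicate 1 (0.24, adjusted p = 0.125). Stx2, a plasma membrane syntaxin of epithelia and other cells, had 549, 649 and 438 normalized reads at P18, 408, 315 and 266 at P75, 287, 322 and 283 at 6 months, and 355, 302 and 315 at 24 months. P18 lay above the other ages, and the fall to P75 was 0.73 ± 0.15 (adjusted p = 0.00125). Stxbp3a, a syntaxin binding protein that pairs with Stx4, had 1071, 1099 and 1003 normalized reads at P18, 869, 743 and 881 at P75, 893, 939 and 809.6 at 6 months, and 969, 908 and 753 at 24 months. It too was highest at P18 without overlap, and fell by 0.35 ± 0.10 to P75 (adjusted p = 0.0123). Stxbp2, its relative known from the secretion of blood and epithelial cells, had 289.9, 356 and 352 normalized reads at P18, 392, 313 and 367 at P75, 297, 365 and 409.7 at 6 months, and 556, 437 and 430.4 at 24 months, with 24 months above all other libraries. Its rise of 0.41 ± 0.14 from 6 to 24 months was called (adjusted p = 0.0471), but not without 6-month replicate 1 (0.28, adjusted p = 0.214) or 24-month replicate 1 (0.29, 0.198). Of the SNAP-25 relatives in the general list, Snap29 had 799.7, 808 and 674 normalized reads at P18, 474, 478 and 449.9 at P75, 565, 573 and 476 at 6 months, and 438, 467 and 453 at 24 months. P18 was highest without overlap, and the fall to P75 was 0.70 ± 0.10 (adjusted p = 4.80e-05). Snap23, the widespread plasma membrane form, had 342, 312 and 199 normalized reads at P18, 284, 186 and 239.9 at P75, 198, 229 and 229.7 at 6 months, and 211, 275 and 242 at 24 months. The ages overlapped, and it was not called in any comparison, with an interval of −0.59 to 0.19 for P18 to 24 months. Snap47 had 9954, 9478 and 13680.4 normalized reads at P18, 9377, 10712 and 8598 at P75, 11019.8, 11666 and 10507 at 6 months, and 9349.8, 9482 and 9691 at 24 months. It was highest in P18 replicate 3 and was not called either, with a log2 change of 0.22 ± 0.13 from P75 to 6 months (adjusted p = 0.160).

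Stx7, Stx8 and Vamp8, SNAREs of late endosomes and lysosomes, fell between P75 and 6 months, while Stx12 of recycling endosomes rose. Stx7, a late endosome syntaxin, had 4690, 4398 and 4033 normalized reads at P18, 3636, 3929 and 4291 at P75, 2866, 3041 and 3214 at 6 months, and 3273, 3469 and 3196 at 24 months. The older ages lay below the younger ones, and P18 overlapped with P75 and 6 months with 24 months. Stx7 fell by 0.38 ± 0.09 (adjusted p = 0.00195). Its partner Stx8 had 963, 967 and 906 normalized reads at P18, 848, 1009.7 and 916 at P75, 523, 644 and 584 at 6 months, and 674, 677 and 612 at 24 months. The older ages again lay below the younger ones, and Stx8 fell by 0.66 ± 0.09 from P75 to 6 months (adjusted p = 2.91e-05). Vamp8, the VAMP of the same complex, had 429, 492 and 304 normalized reads at P18, 463, 445 and 518 at P75, 260.0, 336 and 343 at 6 months, and 436, 425 and 422 at 24 months. Its 6-month libraries were below those of P75 and 24 months, and it fell by 0.61 ± 0.15 from P75 (adjusted p = 0.00257). The rise of 0.46 from 6 to 24 months was called, but not without 6-month replicate 1 (0.33, adjusted p = 0.183) or 24-month replicate 1 (0.45, 0.102). Stx16, of the trans-Golgi network, fell in the same step by 0.49 ± 0.09 (adjusted p = 0.000439). Stx12 (syntaxin 13) went the other way. Its values were 2983, 2917 and 2651 at P18, 2217, 2056 and 2301 at P75, 3215, 3150 and 3242 at 6 months, and 2482, 2573 and 2484 at 24 months, and no pair of neighbouring ages overlapped. It fell by 0.38, rose by 0.55 and fell by 0.35, each with an SE of 0.08 (adjusted p = 0.000978, 2.38e-05 and 0.00668). Stx6, of the trans-Golgi network and endosomes, had 1763, 1841 and 1251 normalized reads at P18, 1324, 1306 and 1109.9 at P75, 1172, 1331 and 1257 at 6 months, and 1052, 1079 and 1171 at 24 months. P18 replicates 1 and 2 stood above the rest. It fell by 0.54 ± 0.12 from P18 to 24 months (adjusted p = 0.00120).

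Among the members in neither list, Syt17, a synaptotagmin without a membrane anchor, moved most. It had 98.6, 119 and 127 normalized reads at P18, 45.1, 32.5 and 45.3 at P75, 222, 167 and 159 at 6 months, and 67.4, 99.5 and 128 at 24 months. P75 was lowest and 6 months highest without overlap with the neighbouring ages. The changes were −1.47 ± 0.21, 2.13 ± 0.21 and −0.92 ± 0.21 (adjusted p = 6.60e-05, 1.26e-06 and 0.00919). Syt11, an abundant synaptotagmin that does not bind calcium, rose by 0.42 ± 0.10 from P75 to 6 months (adjusted p = 0.00178) and reached a mean of 14014 normalized reads there. Vamp5, a VAMP known from muscle, had 49.9, 62.1 and 25.1 normalized reads at P18, 84.2, 99.2 and 119 at P75, 61.7, 71 and 79.8 at 6 months, and 87.2, 103 and 81.5 at 24 months. P18 was nearly separate, with its highest library just above the lowest of 6 months, and the rise to P75 was 1.20 ± 0.25 (adjusted p = 0.00125).

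Ratios within a library show the composition of the set without regard to scaling between libraries. Each gives 3 values per age, and an exact two-sided permutation test of 3 against 3 cannot go below 0.1, so they are described without a test. Syt1 per Snap25 read lay between 0.0256 and 0.0323 at P18, between 0.0242 and 0.0317 at P75, between 0.202 and 0.253 at 6 months, and between 0.148 and 0.199 at 24 months. Every library of the older ages lay above every library of the younger ages. Syp per Vamp2 read, both of the vesicle membrane, went from 0.788 to 1.08 at P18, 1.46 to 1.87 at P75, 2.01 to 2.35 at 6 months and 2.75 to 3.21 at 24 months, with no overlap between any 2 ages. Vamp2 per Vamp1 read, the ratio of the vesicle SNARE to its relative, was 2.08 to 2.55 at P18, 1.499 to 1.68 at P75, 2.12 to 2.22 at 6 months and 1.66 to 1.77 at 24 months, higher at P18 and 6 months than at the other ages without overlap.

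Reads of neuronal members per read of a general relative also differed between ages. Vamp2 per Vamp3 read was 5.20, 4.96 and 9.81 in the P18 libraries, the high value being replicate 3, between 6.34 and 7.39 at P75, between 9.42 and 11.3 at 6 months, and between 8.81 and 9.08 at 24 months. Stx1a per Stx4a read fell from between 1.58 and 2.56 at P18 to between 0.433 and 0.597 at P75, rose without overlap to between 0.775 and 0.970 at 6 months, and lay between 0.460 and 0.623 at 24 months. Snap25 alone made up 41.5% to 45.6% of the summed neuronal members at P18, 52.4% to 56.8% at P75, 31.4% to 33.8% at 6 months and 35.1% to 38.6% at 24 months. The sum of the neuronal members over the sum of the general members was 6.90 to 8.074 at P18 and 8.072 to 8.84 at P75. At 6 months it was 8.39 to 9.44 and at 24 months 8.09 to 8.94, so each age overlapped with the next. The summed neuronal members alone overlapped too, with 249202 to 276948 normalized reads at P75 and 264760 to 277661 at 6 months. Snap47 made up between 27.9% and 40.2% of the summed general members over the 12 libraries. With both Snap25 and Snap47 left out, the ratio of the sums was 5.40 to 7.61 at P18, 5.003 to 6.15 at P75, 8.86 to 10.4 at 6 months and 7.28 to 8.76 at 24 months.

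**Figure D4:**
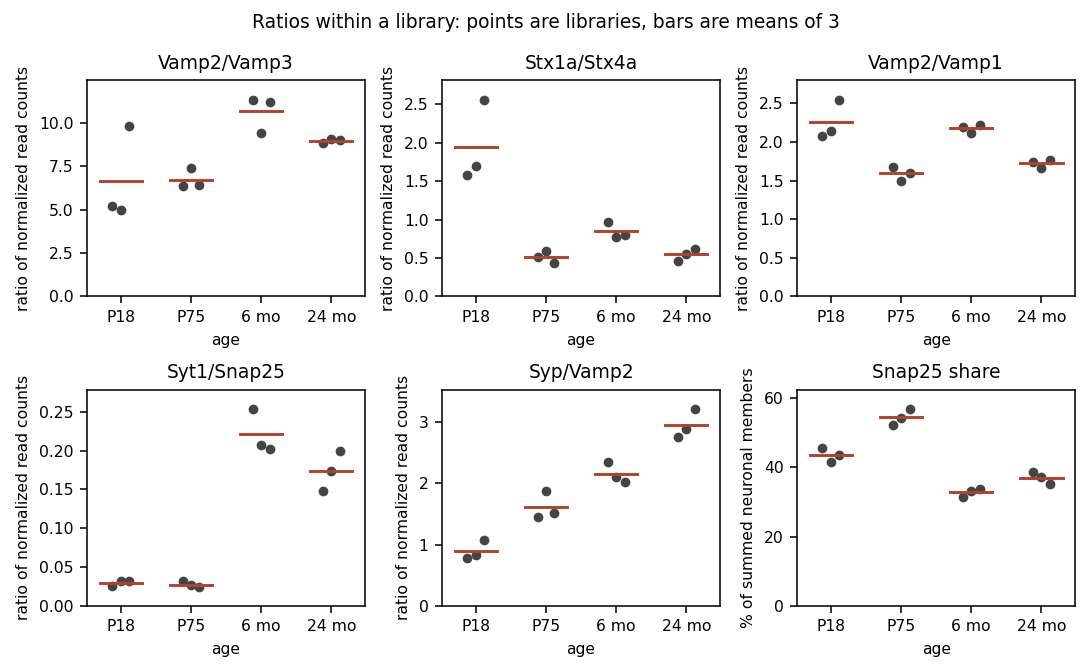
Ratio of normalized read counts of 5 pairs of members, and the share of Snap25 in the summed neuronal members in percent, at each age, with 1 point per library and a bar at the mean of 3. Syt1/Snap25 is near 0.03 at P18 and P75 and at least 0.148 later, and Syp/Vamp2 climbs from age to age.

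Genes of the same machinery outside the symbol rule were read from hand-written lists. Of 27 presynaptic genes, 8 rose and 13 fell from P18 to P75, 19 rose and 1 fell from P75 to 6 months, 2 rose and 14 fell from 6 to 24 months, and 13 rose and 9 fell from P18 to 24 months. The shares of all genes called higher and lower in these comparisons were 25.9% and 22.9%, 31.2% and 29.4%, 16.6% and 12.7%, and 34.7% and 34.3%. The scaffold Rims1, which organizes the active zone, fell by 1.31 ± 0.22, rose by 2.06 ± 0.22 and fell by 0.92 ± 0.22 in the consecutive steps (adjusted p = 0.000235, 2.41e-06 and 0.0108, limma). Napb, the brain form of the SNAP adaptor that takes SNARE complexes apart after fusion, fell by 0.65, rose by 1.69 and fell by 0.77. The vesicular transporters differed: Slc17a7, for glutamate, rose by 1.41 ± 0.16 from P75 to 6 months and changed by −0.22 ± 0.16 before, whereas Slc17a6, also for glutamate, rose in each step, by 0.66, 0.38 and 0.37. Slc32a1, for GABA, rose by 0.80 and 0.89 and changed by 0.09 from 6 to 24 months. Of 22 general trafficking genes, 3 rose and 7 fell, 6 rose and 8 fell, 2 rose and 4 fell, and 4 rose and 10 fell in the same 4 comparisons, to be read against the same shares of all genes. Bet1, a SNARE between the endoplasmic reticulum and the Golgi, fell by 0.71 ± 0.12 from P75 to 6 months (adjusted p = 0.000101).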

How the data were processed

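Per the submitters' processing notes, TopHat2 2.0.8, SAMtools 0.1.19, HTSeq 0.5.4p1, DESeq and the build mm9 were used. The authors counted reads per gene and scaled each library by its DESeq size factor. The deposited values (unit: signal) are normalized read counts on a linear scale, with no division by length. At least 99.995% of the values of each library were whole multiples of 1 read, within 0.02 of a read, and edgeR and DESeq2 were run on those reads only as alternatives. Ages were compared with limma 3.58.1 (trend) in R 4.3.3 on log2(value + 1), for the 14634 genes whose mean reached 10. A single model held the 12 libraries with age as its sole term, and Benjamini-Hochberg adjusted p-values were called under 0.1. Log2 changes understate those of low genes. Alternatives were other pseudocounts, filters, scalings, tools (edgeR 4.0.16, DESeq2 1.42.0), a threshold of 0.05, the 2 ages alone, a replicate block and each library left out. The fits were tested on simulated data.

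Members follow a symbol rule, and the lists (neuronal, general, companion, neuron and oligodendrocyte markers) were chosen with earlier results of these data known. Values in all libraries are given for anchors of both lists and for the 3 largest called rises and falls of each comparison. Of the table's symbols 95.45% were found once in GENCODE vM1 on NCBIM37, which gave positions and lengths. The results of 2 members are counted but not reported here. Promoters are RefSeq, GRCm38.p6. Same-numbered libraries of P75 and 6 months deviated together (r = 0.161, 0.101 and 0.187 across genes), although they come from different mice. With the replicate as a block, 29 members rose and 10 fell in that comparison, as without it.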

Additional observations from a re-analysis of the deposited data

How the results depend on the processing

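No called member changed direction under any alternative tried. Rescaling every library to the same total shifted the median of all genes from P18 to P75 to 0.14 (0.02 as reported), and quantile normalization shifted it from P18 to 24 months to −0.12 (−0.01). With the same total, 18 members were called higher and 12 lower from P18 to P75 (16 and 19 as reported), with 4739 and 1827 of all genes (3783 and 3354). From 6 to 24 months 2 were higher and 13 lower (6 and 14), with 9.5% and 11.0% of all genes (16.6% and 12.7%). At a false discovery rate of 0.05, 3 members were higher and 11 lower from 6 to 24 months, with 11.0% and 8.5% of all genes. Leaving out a library of that comparison gave 1 to 4 members higher and 8 to 15 lower, with 9.5% to 15.0% and 7.0% to 11.5% of all genes. Of the 20 calls, 8 held in all such fits (among them Cplx2, Cplx3, Stx12, Stx1a, Syt17 and Vamp2). In the other comparisons 22 of 35 held from P18 to P75, 32 of 39 between P75 and 6 months and 38 of 43 between P18 and 24 months. With 1 library left out, 2 remain at that age.

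The replicate block gave 15 higher and 19 lower from P18 to P75, 29 and 10 between P75 and 6 months, 6 and 13 between 6 and 24 months, and 23 and 19 from P18 to 24 months. The shares of all genes in that fit were 25.3% and 22.3%, 30.67% and 28.75%, 15.57% and 11.73%, and 34.52% and 33.85%. The block ended the calls of Snap25 (P18 to P75), Syt9 (6 to 24 months) and Vamp4 (P18 to 24 months) and no other. Outside that of P75 and 6 months, correlations of same-numbered deviations lay between −0.21 and 0.03.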
